A study of Glycine max with 24 samples.

Results

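Leaf transcripts of the soybean (Glycine max) inbred line R-11268 were set against those of LD, a parent of that line, in leaves that had received the mock solution. The comparison uses 6 of the 24 libraries of the series, 3 of R-11268 and 3 of LD, and covers all 41743 transcripts of the deposited table, which belong to 41550 loci. Of these, 41603 transcripts carry 1 of 20 chromosome numbers in their identifier and 140 lie on unplaced scaffolds. R-11268 is a recombinant inbred line, LD and LDX are the parents of its population, and R-11272 is another line of that population. Every group here consisted of trifoliolate leaves of plants aged 3 weeks, grown with 16 h of light and infiltrated with water. Leaves of 5 plants of a genotype were pooled, sliced, floated on water overnight and held for 30 min in the dark in 5 ml of water with dimethyl sulfoxide, the solvent of the flg22 peptide. The other slices of a pool received flg22 and chitin, which plants perceive as microbe-associated molecular patterns (MAMPs). Each inbred line is a single line, so a difference between R-11268 and LD belongs to these lines and their pools.

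A recombinant inbred line descends from a cross by repeated selfing. Each of its chromosomes is a mosaic in which nearly every stretch comes in the same form, on both copies, from only one parent. Genes can be followed along it by their order, since neighbours are mostly inherited together. Plant genomes also differ between varieties in which genes they hold at all, often in clusters of similar neighbouring genes. The study asked how natural variants pass from parents to such lines.

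The identifiers (Glyma, chromosome, g, number) are ordered along a chromosome by their number, which is a rank and not a coordinate. None of them (0 matched) is paired with a gene name in the sources used here, so no function is given to any transcript, and the leaf origin could not be checked on marker genes. Totals of the 6 libraries ran from 9780810 to 17541363 estimated counts. The library of LD replicate 2 is the shallowest and stands apart: its mean Pearson correlation with the other libraries of LD was 0.947, against 0.964 and 0.967 for those. The 3 libraries of R-11268 lay between 0.981 and 0.985. LDX replicate 3 (0.831) and R-11272 replicate 1 (0.845) also stand apart in their lines. They enter the test of R-11268 minus LD through its spread, the filter on low counts and the scaling, and not through the means of these lines. LDX replicate 3 also enters every LDX mean and comparison. It correlated at 0.959 with R-11272 replicate 1 and 0.928 with LD replicate 2, against 0.819 and 0.844 with the other LDX libraries. What these pools have in common was not tested. The deposited values have the form of fitted values, and transcripts with few counts scatter between replicates far less than counting allows. At group totals of 5.5 to 30 estimated counts the median squared deviation was 0.0844 of the counting expectation in R-11268 and 0.114 in LD. P-values at low counts are therefore possibly too low, and all of them measure only the spread between these pools.

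Of 32172 transcripts tested, 131 were higher in R-11268 (0.407%) and 125 lower than in LD (0.389%), 256 calls in all (0.796%), at a Benjamini-Hochberg adjusted p under 0.05 in edgeR's quasi-likelihood test. Some other fits called more: DESeq2 416, and limma with a weight per line 1651, of which 897 at 2-fold or more. The edgeR fit with all 24 libraries called 506. Its MAMP libraries come from the same pools and repeat the mock pattern of their line, so they add no new replicates. Other fits called fewer: 152 with a block per replicate number, and 18 among transcripts averaging at least 100 estimated counts. Of the 256, 250 (0.777%) differed by 2-fold or more, 128 higher (0.398%) and 122 lower (0.379%). The median log2 difference was 2.32 among the higher and -2.07 among the lower ones, against -0.0109 over all transcripts tested. Both medians stay as given with the 34 transcripts at 0 in one of the lines set to a floor of 3 counts over the group. On that floor 50 higher and 41 lower transcripts differed by 8-fold or more, and 19 and 16 by 32-fold or more. Only 6 calls were under 2-fold. In bulk leaves, fewer cells that hold a transcript and less of it per cell cannot be told apart.

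The 2-fold calls lay mostly among transcripts with few reads. A mean of 100 or more estimated counts was reached by 36 of the 250, against 18918 of all 32172 transcripts tested. In the line with the higher level, 50 of the 250 stayed under 1 CPM (1 estimated count per 1000000 of the library), 164 lay between 1 and 10 CPM, 32 between 10 and 100 CPM, and 4 at 100 CPM or more. The same split by CPM was not made for all transcripts tested. Of the 100 transcripts with the highest CPM, 0 were called by edgeR, 2 had an unadjusted p under 0.05, and DESeq2 and limma called 0. Over all transcripts tested edgeR called 0.796%, so 0 edgeR calls in 100 cannot show a lower share there. The R-11268 and LD libraries did not overlap for any of the 250, which the choice by test favours, and did not overlap for 29.1% of all transcripts tested. At an unadjusted p under 0.05 there were 2535 transcripts (7.88%). The number of calls rests on each library. It was 142, 163 and 145 without R-11268 replicate 1, 2 and 3, and 99, 144 and 126 without LD replicate 1, 2 and 3. Without the 3 pools that stand apart it was 502.

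Chromosome 18 held more of the differences than any other chromosome. There 69 of 1795 transcripts tested were called at 2-fold or more (3.84%, exact 95% binomial interval 3.0 to 4.84%), against 179 of 30290 on the other 19 chromosomes (0.591%, 0.508 to 0.684%). The intervals cover counting only, and neighbouring transcripts are not independent. Of the 248 such calls on chromosomes (0.773% of those tested there), 27.8% lay on chromosome 18. They leaned downward, with 24 higher in R-11268 and 45 lower. Chromosome 14 followed with 22 of 1290 (1.71%), 17 of them higher and 5 lower, then chromosome 16 with 15 of 1203 (1.25%), 8 higher and 7 lower. At the other end, chromosome 7 had 2 of 1612 (0.124%), chromosome 19 had 2 of 1478 (0.135%) and chromosome 20 had 4 of 1414 (0.283%).

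The share on chromosome 18 was 2.69%, 2.68% and 2.48% without R-11268 replicate 1, 2 and 3, and 1.98%, 2.68% and 2.3% without LD replicate 1, 2 and 3. Without the 3 pools that stand apart it was 5.76%. It stayed the highest of the 20 chromosomes in 19 of 20 alternatives. In the exception the test was limited to transcripts averaging at least 100 estimated counts: 0.463% were called on chromosome 18, and chromosome 14 ranked first.

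**Figure D1:**
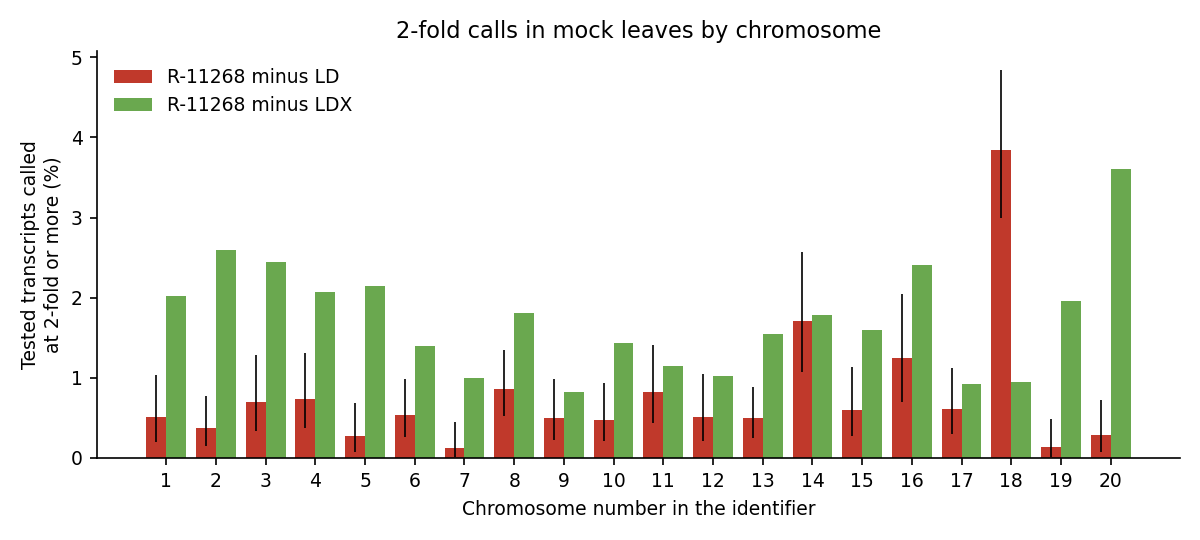
Share of tested transcripts called at 2-fold or more (%, edgeR adjusted p under 0.05) on each chromosome in mock leaves, for R-11268 minus LD (red) and R-11268 minus LDX (green). Black lines are exact 95% binomial intervals of the red bars. The red bar of chromosome 18 stands at 3.84%, and its green bar at 0.947%.

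The same fit gives R-11268 minus LDX, which shares the R-11268 libraries with the comparison above, so the values are set side by side and not tested against each other. R-11268 minus LDX gave 552 calls at 2-fold or more (1.72%). On chromosome 18 they numbered 17 (0.947%), and on chromosome 20 they numbered 51 (3.61%). Chromosome 18 thus had the highest share against LD and one of the lower ones against LDX, and chromosome 20 had the highest share against LDX. LDX minus LD, the contrast of the parents, gave 893 (2.78%) over all transcripts and 98 (5.46%) on chromosome 18.

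The tests read scarce transcripts, so the difference was also counted without a test, on transcripts with 10 CPM or more. Those with a mean difference of 2-fold and R-11268 libraries that did not overlap the LD libraries made up 53 of 887 on chromosome 18 (5.98%), against 377 of 14508 elsewhere (2.6%). The next highest were chromosomes 14 (3.39%) and 15 (3.35%). Without the condition of no overlap, chromosome 18 stood out less, at 6.65%, against 5.59% on chromosome 15 and 5.54% on chromosome 14. That level was a mean over the 6 libraries compared. Single libraries were then compared in pairs, on transcripts with a mean of 10 CPM or more over all 12 mock libraries. These numbered 903 on chromosome 18 and 14828 elsewhere. In 9 of 9 pairs of an R-11268 library with an LD library, the share of transcripts that differed by 2-fold was higher on chromosome 18 than on the other chromosomes. Each library enters several pairs, so pairs are not independent observations here or in the counts of pairs below. Chromosome 18 was also picked from these same libraries, so the counts are a description and no separate check. The median of these pairs was 6.87% on chromosome 18 and 4.74% elsewhere, and without LD replicate 2 it was 6.09% and 3.17%. Pairs of libraries within R-11268 had medians of 2.77% and 3.14% in the same order. Pairs within LD had medians of 11.7% and 12.7%, above those of R-11268 with LD, and the LD pair without replicate 2 had 1.55% and 1.6%. R-11268 paired with LDX gave 7.09% on chromosome 18 and 8.16% elsewhere, with the higher share on chromosome 18 in 3 of 9 pairs. Without LDX replicate 3 these medians were 6.26% and 6.59%, so nearly alike. LDX paired with LD gave 20.2% and 19.7%, with the higher share on chromosome 18 in 7 of 9 pairs. Without LDX replicate 3 and LD replicate 2 it gave 8.53% and 8.28%, so this count hardly set chromosome 18 apart between the parents.

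**Figure D2:**
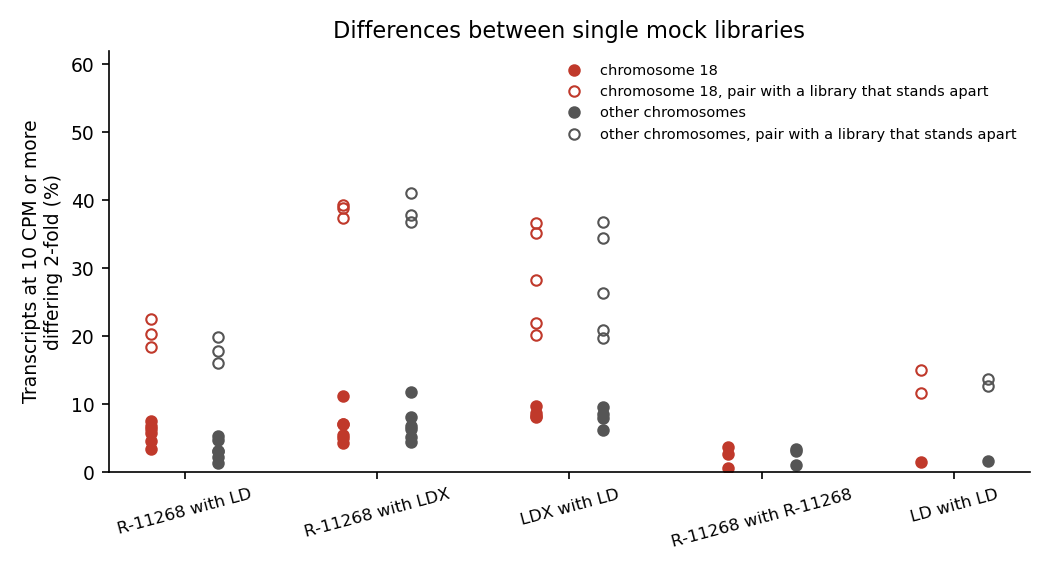
Percent of transcripts at 10 CPM or more that differ by 2-fold between 2 single mock libraries, on chromosome 18 (red) and on the other chromosomes (grey). The level is a mean over all 12 mock libraries. Each point is a pair of libraries, and open points are pairs with LD replicate 2 or LDX replicate 3. For R-11268 with LD the red points without LD replicate 2 run from 3.43% to 7.53% and the grey ones from 1.34% to 5.37%.

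The 2-fold calls were then counted along the chromosomes. The tested transcripts were cut into 631 windows of 50 consecutive ones. Of these windows, 466 (73.9%) held none of the 2-fold calls, and 15 held 3 or more. On chromosome 18 lay 9 of those 15, though it has 35 windows in all. Its higher share of calls alone fills its windows more, and no count under even scatter was made. Whether the calls group more closely than that was not tested. The fullest window, with 9 calls (5 higher and 4 lower), spanned numbers 8620 to 10110 of chromosome 18. The next held 7 calls (2 higher and 5 lower) at numbers 42390 to 43490. Elsewhere no window exceeded 4 calls, a count reached at numbers 4260 to 5010 of chromosome 14, all higher in R-11268. The calls of chromosome 18 ran from number 1190 to 50970, and the last 203 tested transcripts, from number 50980 to 54020, held 0 in edgeR's test. At that end 9 had an unadjusted p under 0.05 (7.88% over all transcripts tested), DESeq2 made 0 calls and limma 2. Against LDX, 3 were called there at 2-fold (1.72% over all transcripts tested).

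On chromosome 18, 14 of 69 called loci (20.3%) had a next tested locus that was also called at 2-fold, 12 in the same direction. On the other chromosomes it was 7 of 178 (3.93%), 6 of them in the same direction. The share of all tested transcripts called at 2-fold was 3.84% and 0.591% in the same order, so the higher share of called neighbours on chromosome 18 does not by itself show closer grouping there. Long stretches without a call lay elsewhere. Chromosome 7 had 877 tested transcripts in a row without one, from number 7390 to 34500 (54.4% of that chromosome). Chromosome 17 had 820 in a row, chromosome 11 had 809 and chromosome 2 had 798. On chromosome 20 a run of 632 from number 200 to 25860 had 0 calls at 2-fold against LD and 30 against LDX. In that run 43 had an unadjusted p under 0.05 against LD, DESeq2 called 1 and limma 31, 12 of them at 2-fold. Over all transcripts tested, 7.88% had an unadjusted p under 0.05. DESeq2 called 416 of 31906 in all, and limma 1651 of 32172, 897 of them at 2-fold. Each run was chosen as the longest of its chromosome without a call, so it is not shown to be free of differences from LD.

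**Figure D3:**
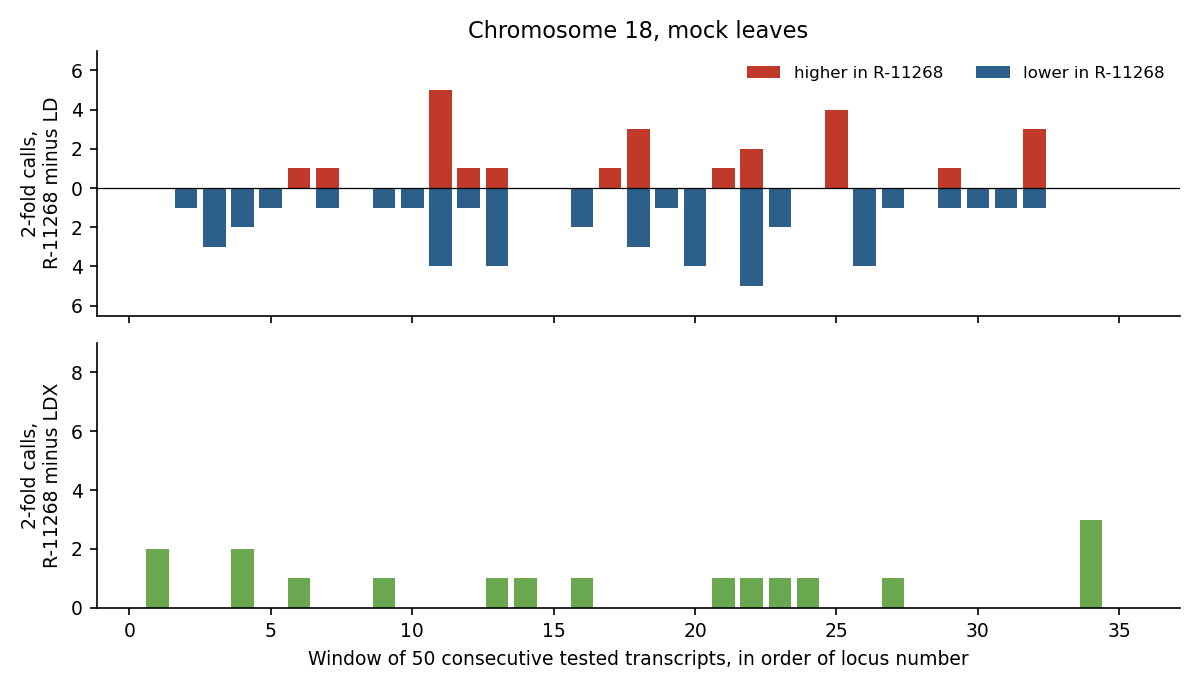
Number of 2-fold calls in each of 35 windows of 50 consecutive tested transcripts along chromosome 18, in order of locus number. The upper panel shows R-11268 minus LD, with calls higher in R-11268 above 0 (red) and lower ones below 0 (blue), and the lower panel shows R-11268 minus LDX. The fullest window of the upper panel holds 5 higher and 4 lower calls and holds 0 in the lower panel.

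The median absolute log2 difference of the 69 called transcripts of chromosome 18 was 3.01 for R-11268 minus LD, 0.41 for R-11268 minus LDX and 2.7 for LDX minus LD. The first of these values was chosen by the calls (with zeros at the floor it is 3.0). The others share libraries with it, so that choice bears on them too. Over all transcripts tested the same medians were 0.26, 0.34 and 0.29. The 22 calls of chromosome 14 had medians of 3.98 (3.78 at the floor), 0.52 and 4.03. The 15 calls of chromosome 16 had medians of 1.94 for R-11268 minus LD, 1.7 for R-11268 minus LDX and 2.16 for LDX minus LD. The 142 remaining calls had 2.0, 0.61 and 1.68, and all 250 calls had 2.23, 0.59 and 2.19. These medians were also smaller against LDX than against LD, an order that choosing transcripts by the LD contrast favours.

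The transcripts furthest apart are described by library, first those lower in R-11268. Glyma18g35940.1 had 0.019, 0.0184 and 0.0183 CPM in R-11268, against 49.8, 66.0 and 43.4 CPM in LD. Totals were 0.994 estimated counts in R-11268 and 2247 in LD, 2710-fold lower in R-11268 with an exact 95% counting interval of 486 to 107000 (edgeR adjusted p = 1.61e-05). On the scale of log2(CPM + 0.5) the difference was -6.67 ± 0.18 (SE, n = 3 each). LDX averaged 0.0416 CPM and R-11272 48.4 CPM, so the libraries fell into a pair of lines with the transcript and a pair nearly without it. Glyma18g09720.1, on the same chromosome, had 0.0156, 0.0149 and 0.022 CPM in R-11268, against 16.5, 13.3 and 9.78 CPM in LD. The groups stood apart with no overlap, at -4.70 ± 0.21 on that scale (SE, n = 3 each; edgeR adjusted p = 0.000259). LDX averaged 0.0596 CPM and R-11272 10.5 CPM.

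Of those higher in R-11268, Glyma15g27470.1 had 7.91, 9.36 and 8.66 CPM, against 0 in all 3 libraries of LD. The level was at least 127-fold higher in R-11268, against a floor of 3 counts over the LD group (edgeR adjusted p = 0.00628). LDX held it at 15.4 ± 8.89 CPM (SD, n = 3), and R-11272 at 0. Glyma12g18710.1 had 6.97, 5.42 and 6.56 CPM in R-11268, against 0.0164, 0.0382 and 0.0182 CPM in LD. The ratio was 282, whose exact 95% interval from counting runs over 50.2 to 11200, and the edgeR adjusted p was 0.00803. LDX averaged 16.8 CPM of it and R-11272 0.116 CPM. On chromosome 18 the first by fold was Glyma18g20770.1, with 4.85, 5.01 and 5.79 CPM in R-11268, against 0.02, 0.024 and 0.0246 CPM in LD (edgeR adjusted p = 0.00134). LDX held it at 4.7 ± 1.44 CPM (SD, n = 3), and R-11272 at 0. In each of these 3 transcripts LDX shared the presence seen in R-11268 and R-11272 was at or near 0.

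On chromosomes 14 and 16 the leading transcripts did not all follow that order. Glyma14g38550.1 had 1.17, 1.44 and 1.79 CPM in R-11268, against 0 in the 3 LD libraries, which is at least 21.8-fold higher (edgeR adjusted p = 0.00255). LDX averaged 10.4 CPM and R-11272 11.2 CPM, so R-11268 lay between its parents, 2.83 below LDX on the log2 scale (edgeR adjusted p = 0.00426). Glyma16g07530.1 was placed alike, with 1.25, 1.19 and 0.985 CPM in R-11268, against 0.0187, 0.0328 and 0.0196 CPM in LD (edgeR adjusted p = 0.0454), a call lost in 7 of 18 alternatives. Its LDX mean was 10.1 CPM. Glyma14g07650.1 was at 0 in R-11268, LDX and R-11272, against 2.35, 2.47 and 1.92 CPM in LD, which puts R-11268 lower by at least 39.4-fold (edgeR adjusted p = 0.00801). That call was lost in 4 of 18 alternatives. Glyma16g27440.1 had 0.281, 0.28 and 0.221 CPM in R-11268, against 7.97, 5.83 and 13.1 CPM in LD (edgeR adjusted p = 0.00771). LDX held 0.921, 3.97 and 3.82 CPM, so R-11268 lay below both parents, and 2 of 18 alternatives lost the call against LD.

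**Figure D4:**
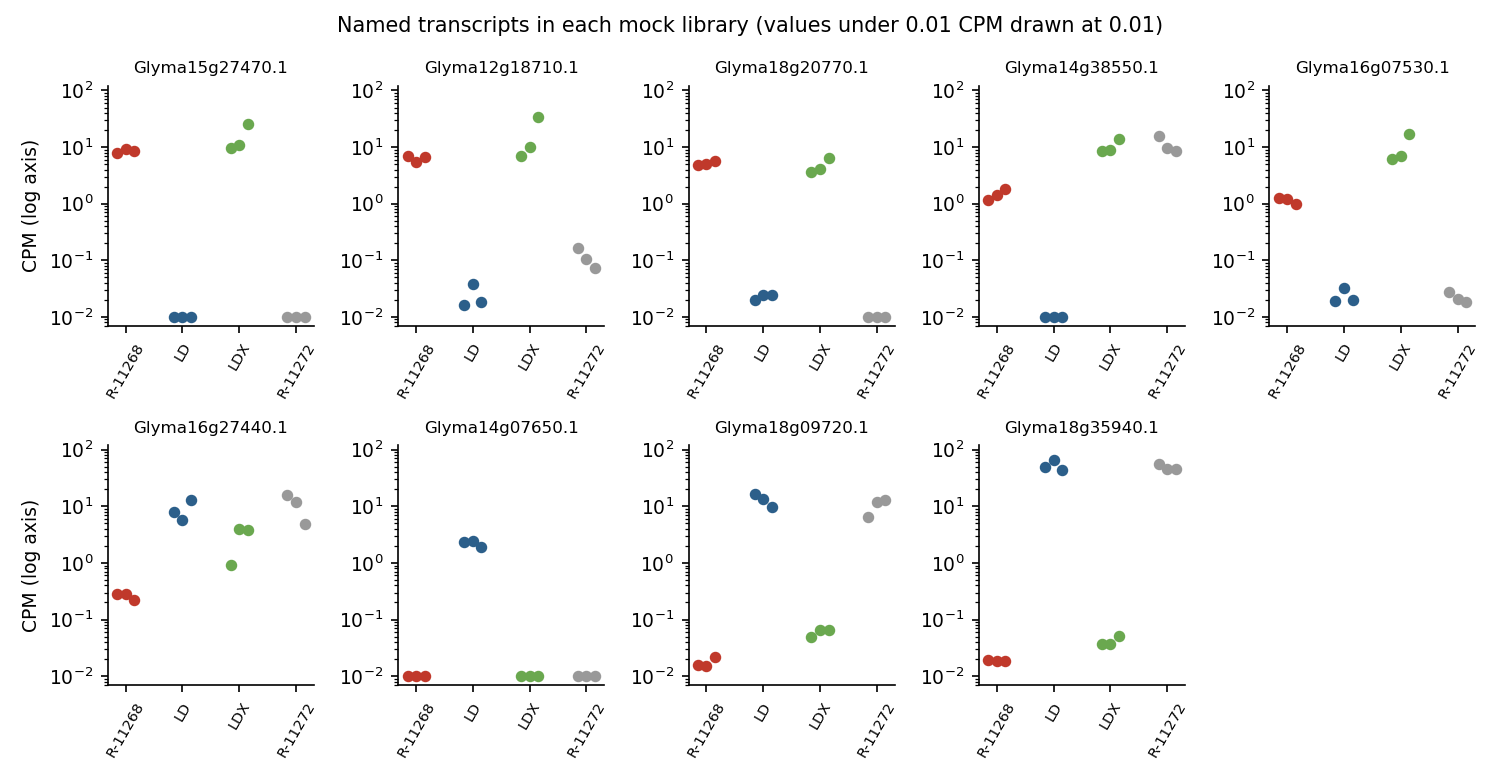
CPM of 9 transcripts in each mock library on a log axis, with 3 points a line for R-11268, LD, LDX and R-11272; values under 0.01 CPM are drawn at 0.01. Glyma18g35940.1 sits near 0.019 CPM in R-11268 and at 43.4 to 66.0 CPM in LD.

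Some differences amounted to presence and absence. A transcript was taken as present at a mean of 1 CPM or more and as nearly absent at a total of 3 estimated counts or less over the 3 libraries of a line. By that rule 34 were present in R-11268 and nearly absent in LD, and 33 the other way round. Chromosome 18 held 10 of the 34 and 16 of the 33, and 1795 of the 32085 transcripts tested on chromosomes. The test called 24 of the 34 and 19 of the 33, against 0.796% of all transcripts tested. The rule and the test read the same difference in the same libraries, so these high counts are built in. Some of the others rest on a single library, as Glyma13g29090.1, a transcript picked after its values were seen, which ranged from 0.0414 to 13.7 CPM over the R-11268 libraries. Without LD replicate 2, 57 of the 67 still met the rule.

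The level in LDX and R-11272 was not used by that rule. LDX had 1 CPM or more for 23 of the 34 transcripts present in R-11268 and nearly absent in LD, and for 10 of the 10 on chromosome 18. Among all 3946 transcripts nearly absent in LD, LDX had 1 CPM or more for 1.75%. That base is unlike the 34, since its transcripts did not have to be present in R-11268. In the opposite set, LDX was nearly absent for 22 of 33, and for 14 of 16 on chromosome 18. Among all 28642 transcripts present in LD, LDX was nearly absent for 0.304%. This base is unlike too: it covers all levels from 1 CPM up, whereas the 33 had a median of 1.86 CPM in LD. R-11272 had 1 CPM or more for 12 of the 34 and for 10 of the 33, with no share over all transcripts counted beside it. The transcript of the second set with the most counts and no call was Glyma18g43980.1, at 0 in the R-11268 libraries and at 3.66 to 32.3 CPM in those of LD, at least 394-fold lower in R-11268. It was also at 0 in LDX and R-11272.

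**Figure D5:**
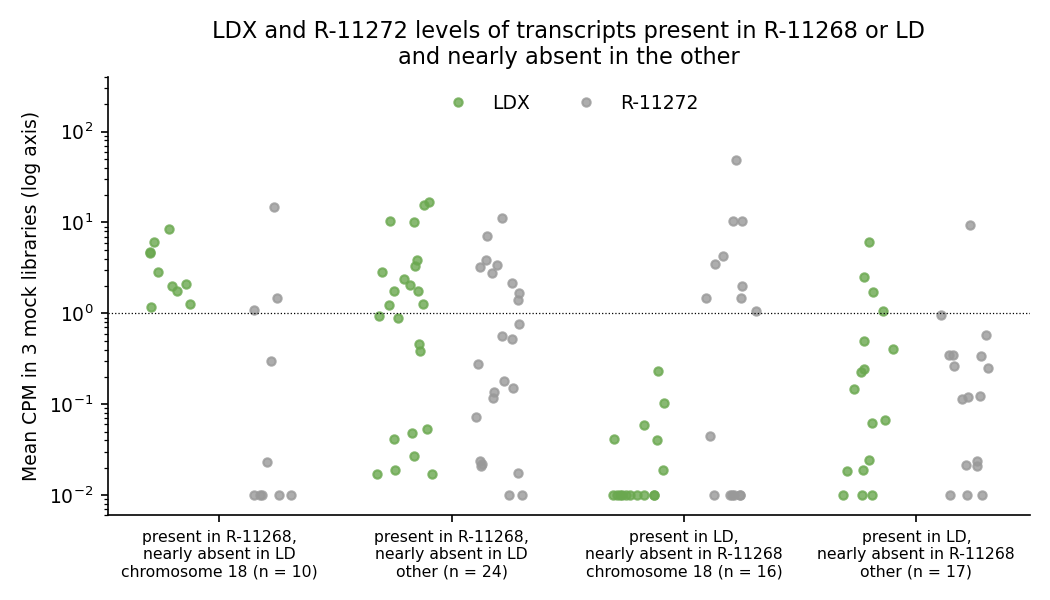
Mean CPM over 3 mock libraries of LDX (green) and R-11272 (grey) on a log axis, for transcripts present in R-11268 and nearly absent in LD and for the opposite set, each split into chromosome 18 and the rest; values under 0.01 are drawn at 0.01 and the dotted line marks 1 CPM. All 10 LDX points of the first column lie above the line, and all 16 LDX points of the opposite set on chromosome 18 lie under it.

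The stretches of neighbouring loci on chromosomes 18 and 14 that follow were chosen after their values were seen. At numbers 9140 to 10140 of chromosome 18, 10 of 24 tested transcripts were called, and the direction switched within the stretch. Its 5 called loci from 9140 to 9440 were higher in R-11268, and its 5 from 9720 to 10140 were lower. Glyma18g09220.1 had 3.05, 3.38 and 2.6 CPM in R-11268, against 0 in LD, and LDX averaged 4.59 CPM. Glyma18g09420.1 had 2.91, 2.76 and 2.79 CPM in R-11268, against 0 in LD, and LDX averaged 2.87 CPM. Both were absent or nearly so in LD and steady over the R-11268 libraries. On the other side, Glyma18g09730.1 was at 0 in R-11268, against 4.04, 4.61 and 2.49 CPM in LD, and was also at 0 in LDX. Glyma18g09920.1 had 0.824, 1.07 and 0.857 CPM in R-11268, against a mean of 20 CPM in LD, where the highest library had 25.1 CPM. R-11272 held 3.5 CPM of Glyma18g09730.1 and 25.2 CPM of Glyma18g09920.1, near the LD level. How reads that match several similar loci were shared out is not stated in what was used here, so values of alike neighbours are uncertain.

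From Glyma18g02570.1 to Glyma18g02620.1, 3 of 6 tested transcripts were called, all lower in R-11268. Glyma18g02580.1 had 51.0, 58.2 and 43.1 CPM in R-11268, against 334, 569 and 287 CPM in LD, a log2 difference of -2.97 (edgeR adjusted p = 0.00544) that held in 20 of 20 alternatives. Glyma18g02600.1 had 0.772, 0.84 and 0.698 CPM in R-11268, against 4.58, 5.8 and 4.27 CPM in LD, at -2.65 (edgeR adjusted p = 0.000565). Glyma18g02610.1 had 144, 150 and 143 CPM in R-11268, against 470, 636 and 472 CPM in LD, at -1.85 (edgeR adjusted p = 0.0289). That last call was lost in 8 of 20 alternatives. The R-11268 and LD libraries were apart in all of these. Between them lies Glyma18g02590.1, with 112, 126 and 101 CPM in R-11268, against 391, 805 and 451 CPM in LD. It did not pass the test (edgeR adjusted p = 0.236). Its values in LDX replicate 3 (311 CPM) and R-11272 replicate 1 (1440 CPM) come from pools that stand apart; their part in this result was not tested. The LDX means of the called loci were 40.0, 0.705 and 76.7 CPM in the order of their numbers.

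On chromosome 14 the calls of the chosen stretches were all higher in R-11268. At numbers 8730 to 8750, 3 adjacent loci were called. Glyma14g08730.1 had 16.3, 13.0 and 16.5 CPM in R-11268, against 0.97, 1.09 and 1.01 CPM in LD, with a log2 difference of 3.89 and an edgeR adjusted p of 0.000616. Its neighbour Glyma14g08750.1 had 3.61, 3.52 and 4.83 CPM in R-11268, against 0.203, 0.302 and 0.202 CPM in LD (edgeR adjusted p = 0.000307). LDX and R-11272 resembled R-11268, with 17.4 and 17.7 CPM of the first locus. In a stretch of 28 tested transcripts that begins with Glyma14g04620.1, 5 were called. Glyma14g04740.1 among them had 5.7, 8.11 and 3.2 CPM in R-11268, against 0.337, 0.248 and 0.388 CPM in LD.

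Of chromosome 16, a pair of loci chosen after their values were seen showed levels between those of the parents. Glyma16g33920.1 had 1.52, 2.69 and 4.07 CPM in R-11268, against 9.26, 8.41 and 8.63 CPM in LD, and 0.16, 0.068 and 0.116 CPM in LDX. Glyma16g34110.1 had 0.907, 0.86 and 0.867 CPM in R-11268, against 2.53, 2.79 and 2.5 CPM in LD, and 0.146, 0.153 and 0.204 CPM in LDX. The R-11268 libraries lay clear of those of both parents for both loci. The adjusted p of R-11268 minus LDX was 0.000284 and 0.000142 in edgeR.

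Of the 250, 39 were also called at 2-fold against LDX, as were 552 of all 32172 transcripts tested (1.72%). This held for 0 of 69 on chromosome 18, 4 of 22 on chromosome 14, 10 of 15 on chromosome 16 and 24 of 142 on the other chromosomes. Among the 39, the R-11268 libraries lay above those of both parents for 12, below both for 12 and neither for 15. Both comparisons use the same R-11268 libraries, so these counts are a description only. Examples from outside the parents' range were picked from their values. Glyma04g03770.1 had 4.96, 4.49 and 4.55 CPM in R-11268, against 0.155, 0.171 and 0.154 CPM in LD and 0.164, 0.17 and 0.23 CPM in LDX. Its log2 difference was 4.62 from LD (edgeR adjusted p = 1.75e-05) and 4.46 from LDX (9.5e-06). Glyma14g17850.1 had 14.1, 16.9 and 19.3 CPM in R-11268, against 2.16, 0.45 and 0.749 CPM in LD and a mean of 0.229 CPM in LDX. In the other direction stood the adjacent loci Glyma13g03540.1 and Glyma13g03550.1. The first was at 0 in R-11268, against 2.71, 2.99 and 2.67 CPM in LD and a mean of 2.49 CPM in LDX. The second had 0.101, 0.0704 and 0.053 CPM in R-11268, against 3.05, 2.47 and 1.65 CPM in LD and a mean of 2.03 CPM in LDX. Both were at 0 in R-11272, so the inbred lines lacked or nearly lacked transcripts that the parents held.

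Some calls with many reads were likewise chosen after their values were seen. Glyma04g39390.1 had 198, 211 and 179 CPM in R-11268, against 58.2, 70.6 and 71.7 CPM in LD, a log2 difference of 1.55 (edgeR adjusted p = 0.0285). The groups were well apart, and 9 of 20 alternatives lost the call. Glyma15g09700.1 had 169, 64.6 and 85.6 CPM in R-11268, against 33.4, 20.3 and 27.3 CPM in LD (edgeR adjusted p = 0.0257, lost in 9 of 20 alternatives), with R-11268 replicate 1 well above the other libraries of its line. Glyma04g08310.1 had 14.3, 13.7 and 15.3 CPM in R-11268, against 67.5, 57.5 and 87.1 CPM in LD, at -2.29 (edgeR adjusted p = 0.000307). That call held in 20 of 20 alternatives.

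After the MAMP solution the same lines differed in 526 of 32278 transcripts tested (1.63%), 280 higher in R-11268 (0.867%) and 246 lower (0.762%; edgeR adjusted p under 0.05). These libraries come from the same pools, and the deposited values tie both treatments of a line together, so they are no independent repeat. Of the 250 transcripts called at 2-fold in mock leaves, 229 were tested there, with a median absolute log2 difference of 2.12, against 2.23 for the 250 in mock leaves.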

How the data were processed

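The table the authors deposited holds estimated counts per transcript, not normalized and not whole. The submitters' processing notes list Bowtie 0.12.7, TopHat 1.4.1 and Cufflinks 1.1.0 with no role. The step that gave these estimated counts, the build and the treatment of multiply matching reads are not stated in those notes or the labels. Within each line the ratio of MAMP to mock values is the same in every replicate (99th percentile of its SD over replicates at most 2e-09 on the log2 scale), the form of values fitted by a model.

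Values were rounded to whole numbers. The 12 mock libraries, 3 for each of 4 lines, entered edgeR 4.0.16 (R 4.3.3) with filterByExpr (minimum count 10, minimum total 15), TMM scaling, a mean per line and a quasi-likelihood test with 8 residual degrees of freedom. P-values were adjusted over all 32172 transcripts tested. A 2-fold call also needs an absolute log2 difference of 1. CPM are estimated counts per 1000000 of the library total scaled by TMM, with no correction for length, so levels of different transcripts are not compared. Intervals and floors cover counting error only. DESeq2 1.42.0 and limma 3.58.1 were alternatives.

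Libraries were grouped by the labels. Column names ending in C were read as mock. Replicate numbers were not taken to pair lines. The labels do not say whether replicate pools were grown separately. The named transcripts are, among calls whose libraries do not overlap and that reach 1 CPM in the higher line, the first 2 by fold in each direction and the first in each direction on the 3 chromosomes with the highest share of 2-fold calls. Others were chosen after their values were seen. The gene lists and marker lists could not be applied, since 0 identifiers matched a name. The comparison and the rules were chosen with earlier results of these data known.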

Additional observations from a re-analysis of the deposited data

Results flagged for a closer look

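For 2 of the 250 transcripts called at 2-fold in mock leaves, the R-11268 libraries lay above all LD libraries after the mock solution and below all of them after the MAMP solution. Within a line the ratio of MAMP to mock values is the same in every replicate. The MAMP libraries therefore repeat the mock pattern of their line and are not separate observations. Whether the difference between R-11268 and LD changed with treatment was not tested. Glyma03g35990.1 had 8.93, 8.63 and 9.25 CPM in R-11268, against 1.59, 3.52 and 2.4 CPM in LD, in mock leaves (log2 difference 1.86). After MAMP it had 68.8, 66.7 and 71.7 CPM in R-11268, against 110.0, 240.0 and 167.0 CPM in LD (log2 difference -1.32, edgeR adjusted p = 0.0838). Glyma17g01520.1 had 2.99, 3.68 and 4.14 CPM in R-11268, against 0.882, 0.986 and 1.06 CPM in LD, in mock leaves (log2 difference 1.88). After MAMP it had 39.7, 49.1 and 55.4 CPM in R-11268, against 73.3, 80.8 and 88.1 CPM in LD (log2 difference -0.75, edgeR adjusted p = 0.0646).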

How the results depend on the processing

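The count of calls was 256, of which 250 at 2-fold, and 3.84% of chromosome 18 was called at 2-fold. In the order calls, 2-fold calls and chromosome 18 share, all 24 libraries gave 506, 428 and 5.54%; the 6 compared libraries alone 400, 374 and 5.46%; sums per pool 492, 474 and 5.89%; no filter on low counts 465, 451 and 4.25%. DESeq2 gave 416, 362 and 5.63%, limma with a weight per line 1651, 897 and 8.41%, and edgeR's likelihood ratio test 453, 441 and 6.13%. A mean of 100 or more estimated counts left 18 calls, all at 2-fold, with 0.463% on chromosome 18 and 12 higher against 6 lower. Leaving out each replicate gave 99 to 163 calls, 99 to 163 at 2-fold, and 1.98 to 2.69%. Alternatives chosen after seeing the data were the fit without the 3 pools apart (502, 409 and 5.76%), that fit at a mean of 100 or more (53, 46 and 0.989%), the likelihood ratio test, and the 5 compared libraries without LD replicate 2, which stayed within 1.5 times (345 and 321 calls). RLE size factors and scaling to totals gave 258 and 296 calls; total scaling moved the median log2 difference of all transcripts to 0.089. The fit with all 24 libraries holds each pool in both treatments. The MAMP values repeat the mock pattern of their line, so that fit adds libraries but no new replicates. Causes of the shifts between settings were not tested.

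The replicate block gave 152 calls, all at 2-fold (91 higher, 61 lower), and 2.4% on chromosome 18. Deviations of R-11268 and LD libraries with the same number correlated at -0.062, 0.12 and 0.144, against -0.267 to 0.278 for other numbers. Deviations from a mean of 3 libraries depend on each other, so these values cannot decide whether equal numbers share a block. For MAMP libraries the main count of 526 became 1372 with all 24 libraries, 1133 with the 6 compared, 246 with the block and 1622 without the 3 pools apart. The 67 transcripts of presence and absence became 10 at 5 CPM or more and 34 at a total of 0.5 or less. Of the 15 transcripts rerun under the alternatives, none changed direction; the other transcripts named were not rerun singly. A mean of 100 or more estimated counts was reached by 18918 of the 32172 transcripts tested and by 36 of the 250 called at 2-fold.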
